A study of Mus musculus with 16 samples.

Results

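The vomeronasal receptor genes are the Ensembl gene models, of any biotype, whose symbol begins with Vmn1r or Vmn2r in the gene annotation of this macrophage series. There were 541 such models among 46078 Ensembl gene models (1.17%, 95% Wilson interval 1.08 to 1.28%). The Vmn1r family had 319 models, of which 205 were protein-coding and 114 were pseudogenes. The Vmn2r family had 222 models, of which 124 were protein-coding, 97 were pseudogenes and 1, Vmn2r-ps111, was annotated as a lincRNA. The 541 models carried 539 symbols, since Vmn1r-ps5 stands on 2 chromosomes and Vmn2r118 on chromosome 17 and again on a patch. Members made up 1.48% of the 22159 protein-coding models and 2.39% of the 8839 pseudogene models. The interval treats gene models as a sample and covers counting error only, and gene models are not replicates of a condition, so no p-value was computed between groups of models.

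The series comprised 16 libraries of mouse macrophages that had been cultured from bone marrow cells with the growth factor M-CSF, here at 50 ng/ml for 7 days. RNA-seq covered 3 libraries with lipopolysaccharide (LPS), a bacterial outer membrane component, and 3 untreated libraries, all from WT C57BL/6 cells. Ribosome profiling, which sequences ribosome-protected fragments, covered 2 LPS and 2 untreated libraries of the same strain and genotype. The titles of all ribosome profiling libraries also carry the abbreviation CHX, so untreated there means without LPS. The labels of neither assay tie a library to an LPS time. RiboTag, which recovers RNA bound to a tagged ribosomal protein, covered 2 untreated libraries, 2 at 6 h and 2 at 24 h of LPS from LysM-Cre x RiboTag cells, where the tag is switched on in cells with LysM-Cre activity, typically myeloid cells. Values of these libraries were not analysed here, so neither the level of a receptor in macrophages nor its response to LPS is described, and the sequencing depth is unknown. The results describe the models on which reads of these genes would be placed, in build mm10.

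Vomeronasal receptors are G protein-coupled receptors of the sensory neurons of the vomeronasal organ, which detects pheromones and other social and predator cues. Receptors of the Vmn1r (V1R) family sit in apical neurons with the G protein subunit Gnai2 and have a short extracellular start, while those of the Vmn2r (V2R) family sit in basal neurons with Gnao1 and carry a long extracellular ligand-binding domain. Both kinds of neuron depend on the channel Trpc2, and the receptors are known from that organ rather than from macrophages.

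The starts of 5 receptors with a described ligand are printed here, taken only where an ATG stood at the RefSeq start. The annotated transcript start and the start codon, in capitals, therefore fell on the same base in each. This choice says nothing of other models, and the shares of RefSeq starts with an ATG are given below. Vmn1r49 (V1rb2, a receptor for the urinary ketone 2-heptanone, chr6:90072969-90073058, minus strand) and Vmn1r85 (a receptor for sulfated steroids, chr7:13085166-13085255, minus strand) are given with Vmn2r26 (V2r1b, a receptor for MHC-binding peptides, chr6:124024718-124024807, plus strand), Vmn2r88 (a receptor for hemoglobin, chr14:51410961-51411050, plus strand) and Vmn2r116 (the receptor for the male tear peptide ESP1, chr17:23384763-23384852, plus strand). Each runs 5′ to 3′ over 40 bases before and 50 bases from the RefSeq start, from RefSeq sequence of build GRCm38.p6.
Vmn1r49: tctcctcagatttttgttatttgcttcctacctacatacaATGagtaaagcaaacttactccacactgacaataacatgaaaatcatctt
Vmn1r85: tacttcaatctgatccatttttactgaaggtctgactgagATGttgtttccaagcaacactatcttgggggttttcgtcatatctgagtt
Vmn2r26: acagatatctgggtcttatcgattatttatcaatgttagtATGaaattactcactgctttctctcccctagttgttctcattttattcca
Vmn2r88: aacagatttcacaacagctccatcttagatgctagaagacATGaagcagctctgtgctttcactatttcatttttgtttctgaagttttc
Vmn2r116: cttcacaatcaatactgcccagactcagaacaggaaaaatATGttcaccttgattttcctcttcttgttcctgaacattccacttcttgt

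Whole start regions were repeated among members. The 300-base window around the start, 250 bases before it and 50 from it, was the same base for base in Vmn1r111 (chr7:20703167-20703466), Vmn1r118 (chr7:20912298-20912597), Vmn1r131 (chr7:21546041-21546340), Vmn1r138 (chr7:22028848-22029147) and Vmn1r166 (chr7:23251633-23251932), all on the minus strand, and it is shown once with the start codon in capitals.
Vmn1r111: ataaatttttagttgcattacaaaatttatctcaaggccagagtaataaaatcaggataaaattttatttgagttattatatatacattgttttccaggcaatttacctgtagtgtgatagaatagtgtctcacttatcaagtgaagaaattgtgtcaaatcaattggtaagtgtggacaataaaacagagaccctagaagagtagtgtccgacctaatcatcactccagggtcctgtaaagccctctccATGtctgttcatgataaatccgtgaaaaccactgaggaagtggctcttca

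Other pairs differed at a few positions, shown in capitals with 30 bases on either side where the window allows and numbered from 1 at the 5′ end of the 300-base window. Vmn1r94 (chr7:20168516-20168627, minus strand) and Vmn1r127 (chr7:21320000-21320111, minus strand) differed by C15T, T76G and T82C over the whole window, with the base of Vmn1r94 first. Vmn2r6 (chr3:64559815-64559923, minus strand) and Vmn2r7 (chr3:64719599-64719707, minus strand) differed by A176G and C224T, with the base of Vmn2r6 first.
Vmn1r94: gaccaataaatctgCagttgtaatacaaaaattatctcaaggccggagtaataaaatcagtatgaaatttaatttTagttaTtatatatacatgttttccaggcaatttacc
Vmn1r127: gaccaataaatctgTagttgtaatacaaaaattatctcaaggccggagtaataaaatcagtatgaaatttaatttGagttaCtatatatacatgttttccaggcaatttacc
Vmn2r6: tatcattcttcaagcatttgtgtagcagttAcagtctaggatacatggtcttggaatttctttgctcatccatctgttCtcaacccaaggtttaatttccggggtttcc
Vmn2r7: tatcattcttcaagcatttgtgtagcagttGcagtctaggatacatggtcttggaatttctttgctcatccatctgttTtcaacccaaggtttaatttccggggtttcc

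Pseudogenes were a large part of both families. The pseudogene share was 35.7% of Vmn1r models (95% Wilson interval 30.7 to 41.1%) and 43.7% of Vmn2r models (37.3 to 50.3%), and the intervals of the families overlapped. Both shares lay above those of the other chemosensory families and of the annotation as a whole, without a test. The share was 12.2% of 1257 Olfr models (odorant receptors of the main olfactory epithelium), 1 of 16 Taar models (trace amine receptors), 0 of 35 Tas2r models (bitter taste receptors), 0 of 7 Fpr models (formyl peptide receptors) and 19.2% of all Ensembl models. Nearly all Vmn pseudogenes were annotated as unprocessed, that is, as copies that kept the genomic arrangement. Unprocessed and transcribed unprocessed models numbered 197, processed models, which derive from a spliced RNA, numbered 13, and Vmn1r227 carried the plain biotype pseudogene. Of the processed models, 5 lay inside clusters of 10 or more members, against 180 of the 197 unprocessed ones. The suffix -ps of a symbol followed the biotype closely. It stood in the symbols of 212 members. The exceptions were the coding models Vmn2r-ps104 and Vmn2r-ps130, the lincRNA Vmn2r-ps111, and the pseudogenes Vmn1r221 and Vmn1r227, which carry no suffix.

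**Figure D1:**
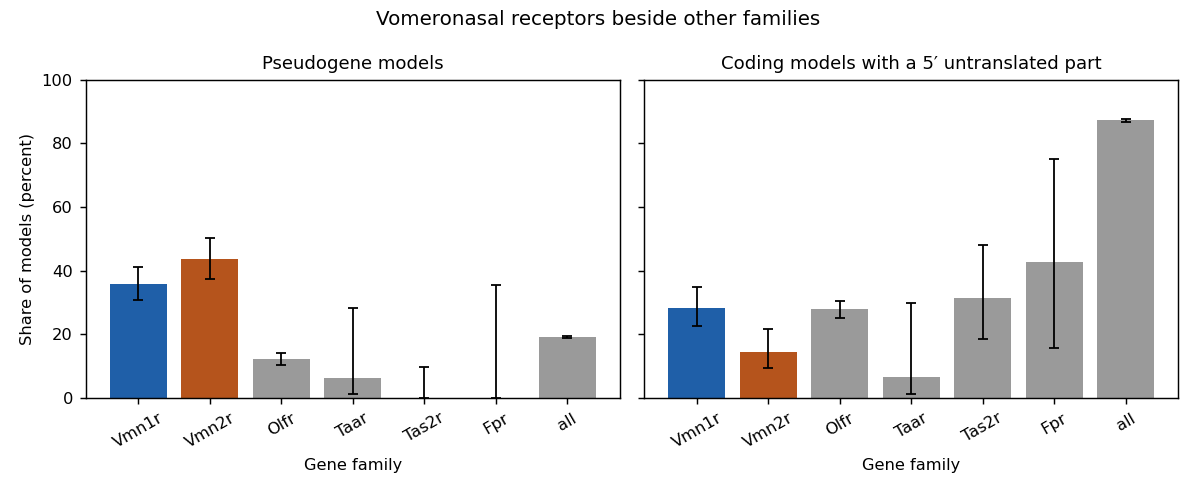
Share of pseudogene models among all models of a family (left) and of protein-coding models with an annotated 5′ untranslated part (right), in percent, with 95% Wilson intervals as bars. The Vmn1r and Vmn2r families (35.7% and 43.7% pseudogenes) stand to the left of Olfr, Taar, Tas2r, Fpr and all Ensembl models (19.2% pseudogenes, 87.2% of coding models with a 5′ untranslated part).

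Coding Vmn1r models were nearly all intronless in their coding sequence. All 205 had a single coding exon in the transcript with the longest coding sequence (95% Wilson interval 98.2 to 100%). When every annotated transcript was taken, 98.5% of the models had a single coding exon throughout (95.8 to 99.5%). The median coding length was 307 codons without the stop codon (quartiles 303 and 311, n = 205), and 307 was also the commonest length, with 29 models. The shortest was Vmn1r237 at 289 codons and the longest Vmn1r213 at 384 codons, so the whole family fell within a narrow range. Start and stop codon lines were present in 204 of the 205, with no start codon line in Vmn1r82. An Olfr coding model is built alike: 98.7% of 1104 had a single coding exon, with a median of 313 codons. Across all protein-coding models the single-exon share was 16.7% and the median 387 codons.

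Untranslated parts were rare in the family. A 5′ untranslated part was annotated in 58 of 205 coding Vmn1r models (28.3%, 22.6 to 34.8%), with a median of 59.5 bases where present, and a 3′ part in 63 (30.7%). In Olfr coding models the 5′ share was 27.8%, and in all protein-coding models 87.2%. Introns occurred in the chosen transcript of 7 Vmn1r models, namely Vmn1r32, Vmn1r45, Vmn1r58, Vmn1r63, Vmn1r65, Vmn1r172 and Vmn1r235, and in each they lay before the start codon. Vmn1r65 had 3 exons and 1198 bases of 5′ untranslated part, and Vmn1r45 had the longest spliced length of the family, 3250 bases, of which 912 lay before and 1381 after the coding part. The shortest spliced coding models were Vmn1r87 and Vmn1r115 with 888 bases each. The most exons belonged to 1 of the 3 transcripts of Vmn1r69, with 7, and the most transcripts to Vmn1r31, with 4. Most members had 1 transcript: 95.1% of coding Vmn1r models and 87.1% of coding Vmn2r models did, against 39.0% of all protein-coding models.

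Coding Vmn2r models had a different plan, with 6 coding exons in 116 of 124 (93.5%, 87.8 to 96.7%). The median coding length was 854 codons (quartiles 850.75 and 859, range 223 to 915), and all 124 had start and stop codon lines. Because of introns, the median span was 23976.5 bases, with quartiles 16129 and 32912 bases, against 933 bases in Vmn1r. Introns made up a median of 89.2% of the span from start to stop codon in the models of 6 coding exons. A 5′ untranslated part was annotated in 18 models (14.5%, 9.38 to 21.8%). The longest spliced coding model of the family was Vmn2r10 with 3897 bases, and 5 transcripts, the most in any coding member, were annotated for Vmn2r42 and for Vmn2r122.

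The 6 coding exons differed in how far their lengths varied. Their median lengths in order from the start codon were 204.5, 292, 807, 228, 124 and 917 bases (n = 116 models). The third exon, within the part that encodes the extracellular domain, held 31.4% of the coding bases, and the last, which in this receptor class encodes the membrane-spanning part, held 35.3%. The fifth coding exon was the least variable: it was 124 bases long in 115 of 116 models. Counting models of any exon number, 120 of 124 had a coding exon of 124 bases, the exceptions being Vmn2r-ps104, Vmn2r55, Vmn2r89 and Vmn2r122. Among the distinct coding exon parts of all other protein-coding models, 1289 of 229601 had that length (0.561%). The commonest lengths of the other exons were found in 42, 47, 33, 61 and 22 of 116 models, in order from the start codon. Reading phase follows from the summed lengths before an exon and can take far fewer values than length, so their spreads are not comparable. The fifth and sixth coding exons began in their commonest phase in 115 of 116 models each, the fourth in 115, the third in 113 and the second in 112. Introns varied far more than exons, with a median of 405.5 bases before the third coding exon (range 251 to 12946) and 4034.5 bases before the sixth (range 1 to 52560).

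**Figure D2:**
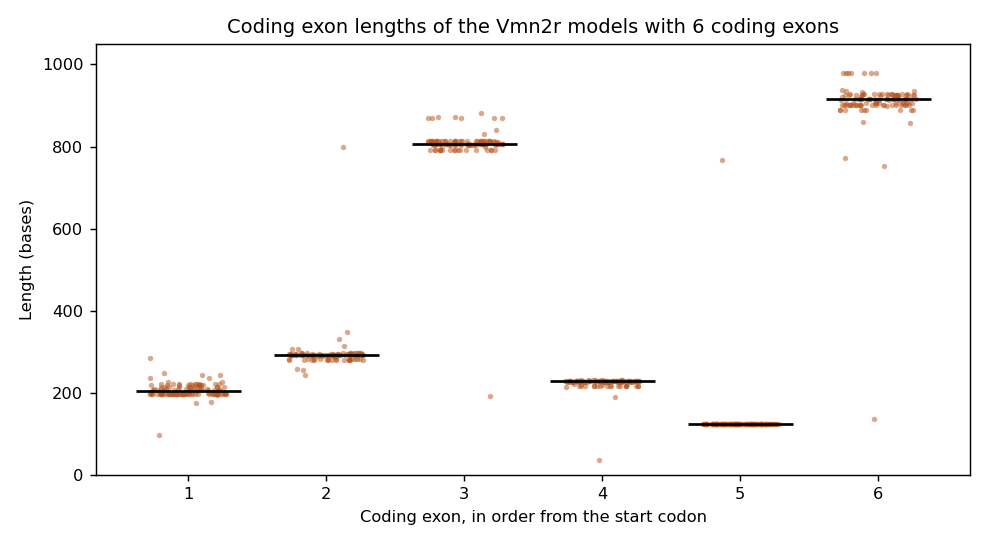
Length in bases of each coding exon, in order from the start codon, for the 116 Vmn2r models with 6 coding exons; points are models and lines are medians (204.5, 292, 807, 228, 124 and 917 bases). The fifth exon is 124 bases in all but Vmn2r122, and the single points away from their column belong to Vmn2r56, Vmn2r94 and Vmn2r122.

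Small length differences followed position in the genome. The 116 models had 74 distinct sets of 6 lengths, and 18 of these sets were shared by 2 or more models, covering 60 models. Of the 18 shared sets, 13 were confined to 1 cluster of neighbouring genes. The set of Vmn2r118, counted among the 18 but not the 13, only pairs its chromosome 17 model with the model of the same symbol on a patch. The largest set, with lengths 197, 292, 813, 228, 124 and 902, was common to 14 models, among them Vmn2r28, Vmn2r29 and Vmn2r52, and 7 further models such as Vmn2r31 and Vmn2r50 differed from it only in a last exon of 929 bases. All of these 21 lay in neighbouring clusters near one end of chromosome 7. The third exon was 813 bases in all 17 models with 6 coding exons of the chromosome 7 cluster that begins with Vmn2r29, 807 bases in all 7 of the cluster from Vmn2r57 to Vmn2r63, and 792 bases in 18 of 21 of the chromosome 17 cluster that begins with Vmn2r90. In the chromosome 3 cluster it was 870 bases in 5 of 7 models, and the last exon was 980 bases in all 7. The ESP1 receptor Vmn2r116 shared its full set of lengths, with exon 3 at 813 bases, with Vmn2r113 alone.

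The chromosome 3 cluster holds Vmn2r1 to Vmn2r7, the receptors of family C, which are known for being expressed together with other V2R receptors in the same neurons. They had 908 to 915 codons (7 models), whereas the other 117 coding Vmn2r models had 223 to 865, and the ranges did not overlap. In order, Vmn2r1 had 912 codons, Vmn2r2 had 908, Vmn2r3 had 915, Vmn2r4 had 913, Vmn2r5 had 911, Vmn2r6 had 913 and Vmn2r7 had 915. Each had 6 coding exons, and the third, at 870 to 883 bases, and the last, at 980 bases, compare with family medians of 807 and 917 bases. Vmn2r7 had the widest span of all coding Vmn2r models, 154106 bases, with 835 bases of 5′ untranslated part and 8 exons. Among the other receptors with a described ligand, Vmn1r49 had 310 codons, Vmn1r85 had 308, Vmn1r89 (also a receptor for sulfated steroids, chr7:13219339-13220289, plus strand) had 316, Vmn2r26 had 855, Vmn2r88 had 857 and Vmn2r116 had 856. All of these had exon bases of their own only, with 0 bases shared with another model on their strand.

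The 8 coding Vmn2r models with another number of coding exons were shorter than the family median, with 1 exception. Vmn2r-ps104 had 4 coding exons and 223 codons, the shortest of the family, and Vmn2r96 had 4 and 664 codons. Models of 5 coding exons were Vmn2r18 (788 codons), Vmn2r53 and Vmn2r54 (806 codons each, with the same 5 exon lengths), Vmn2r55 (781 codons) and Vmn2r89 (507 codons, with a last coding part of 3 bases). Vmn2r53, Vmn2r54 and Vmn2r55 each began with coding exons of 285 and 798 bases, and so did Vmn2r56, which reached 6 through parts of 191 and 37 bases. Vmn2r120 was the exception, with 7 coding exons and 856 codons, within the usual length. In Vmn2r122, on an unplaced sequence, coding parts 5 and 6, of 767 and 135 bases, were separated by an intron of 1 base.

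Pseudogene models differed from coding models in another way in each family. Vmn1r pseudogenes were mostly close to full length, with a median spliced length of 864.5 bases (quartiles 552.75 and 926, n = 114). The median coding length of coding models was 921 bases. Of the Vmn1r pseudogenes, 72 (63.2%) reached at least 80% of that coding length and 22 (19.3%) were under 50% of it. A single exon was found in 106 (93.0%). Vmn2r pseudogenes had a median spliced length of 940 bases (quartiles 651 and 2368, n = 97), against 2562 coding bases in coding models. Only 31 (32.0%) reached 80% of that length, and 62 (63.9%) were under 50% of it. Length went with exon number. The 41 pseudogenes with 1 exon had a median of 651 bases, while the 23 with 6 or more exons had a median of 2565 bases, close to the coding length. An exon of exactly 124 bases, the length of the constant coding exon, occurred in 37 of the 56 Vmn2r pseudogenes with 2 or more exons (66.1%, 53.0 to 77.1%). Of the single-exon models, 19 of 41 measured 700 to 1000 bases, a range that covers both the third and the sixth coding exon of intact models. The longest and shortest Vmn1r pseudogenes were Vmn1r-ps73 (2120 bases) and Vmn1r-ps54 (178 bases), and the most exons, 3, were in Vmn1r-ps106. For Vmn2r they were Vmn2r-ps49 (3551 bases) and Vmn2r-ps116 (126 bases), and Vmn2r-ps54 had the most exons, 8, and 5 transcripts.

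**Figure D3:**
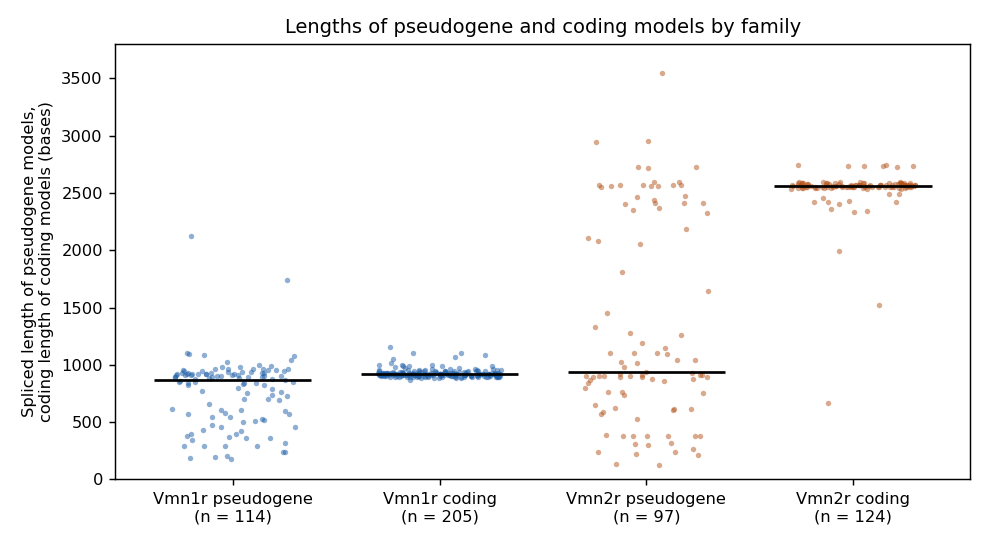
Spliced length of pseudogene models and coding length of protein-coding models, in bases, for Vmn1r (left pair) and Vmn2r (right pair); points are models and lines are medians. Vmn1r pseudogenes (median 864.5 bases) lie mostly near the coding models (921 bases). Vmn2r pseudogenes (median 940 bases) spread from 126 to 3551 bases around the coding length of 2562 bases and below it.

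Pseudogenes stood beside coding genes of their own family. The gap to the nearest coding member of the family had a median of 19004 bases for Vmn1r pseudogenes (quartiles 10572.5 and 35637, n = 111) and 32390 bases for Vmn2r pseudogenes (quartiles 20686.5 and 61819.5, n = 87). The remaining 3 and 10 pseudogenes lay on chromosomes without a coding member of the family. Within 100000 bases of a coding member were 108 of 114 Vmn1r pseudogenes (94.7%) and 79 of 97 Vmn2r pseudogenes (81.4%).

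The members were gathered in few places. They lay on 14 chromosomes, with 241 on chromosome 7 (44.5%), 90 on chromosome 6, 76 on chromosome 17 and 66 on chromosome 13, and 3 models lay on patch or unplaced sequences. When members with at most 500000 bases between them were joined, they formed 44 clusters, of which 17 had a single member, 3 of them on patch or unplaced sequences, where no distance to the other members could be measured. The 15 clusters of 10 or more held 479 of the 541 members (88.5%, 85.6 to 91.0%). The count depended on the joining distance, with 78 clusters at 100000 bases, where 64.5% of members were in clusters of 10 or more, and 40 clusters at 1000000 bases. The families were mostly apart: 4 clusters held both, all among the 15 large ones, and 487 of 497 neighbouring pairs within clusters were of 1 family (98.0%). Neighbours shared a strand in 64.5% of 296 Vmn1r pairs and 67.0% of 191 Vmn2r pairs, and the 29 members of the chromosome 7 cluster that begins with Vmn2r29 were all on the minus strand.

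The largest cluster had 78 Vmn1r members (65 coding and 13 pseudogenes) at chr7:20101158-24055691, from Vmn1r91 to Vmn1r183 as first and last coding members. Vmn1r clusters next in size were those from Vmn1r188 to Vmn1r223 on chromosome 13 (64 members, 33 coding), from Vmn1r4 to Vmn1r31 on chromosome 6 (42 members, 28 coding) and from Vmn1r40 to Vmn1r54 on chromosome 6 (23 members, 15 coding). The clusters with both families ran from Vmn2r90 to Vmn1r237 on chromosome 17 (60 members) and, on chromosome 7, from Vmn1r72 to Vmn1r89 (40 members), from Vmn2r46 to Vmn1r71 (21 members) and from Vmn1r55 to Vmn1r65 (15 members). The Vmn2r clusters on chromosome 7 ran from Vmn2r65 to Vmn2r76 (36 members), from Vmn2r29 to Vmn2r37 (29 members) and from Vmn2r57 to Vmn2r63 (14 members). On other chromosomes they ran from Vmn2r1 to Vmn2r7 (chromosome 3, 18 members), from Vmn2r111 to Vmn2r117 (chromosome 17, 14 members), from Vmn2r19 to Vmn2r27 (chromosome 6, 13 members) and from Vmn2r8 to Vmn2r17 (chromosome 5, 12 members). The balance of classes differed between clusters: the cluster from Vmn2r65 had 24 pseudogenes and 12 coding models, and the cluster from Vmn2r8 had 2 pseudogenes and 10 coding models. These counts are descriptions of single clusters, with no test between them.

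**Figure D4:**
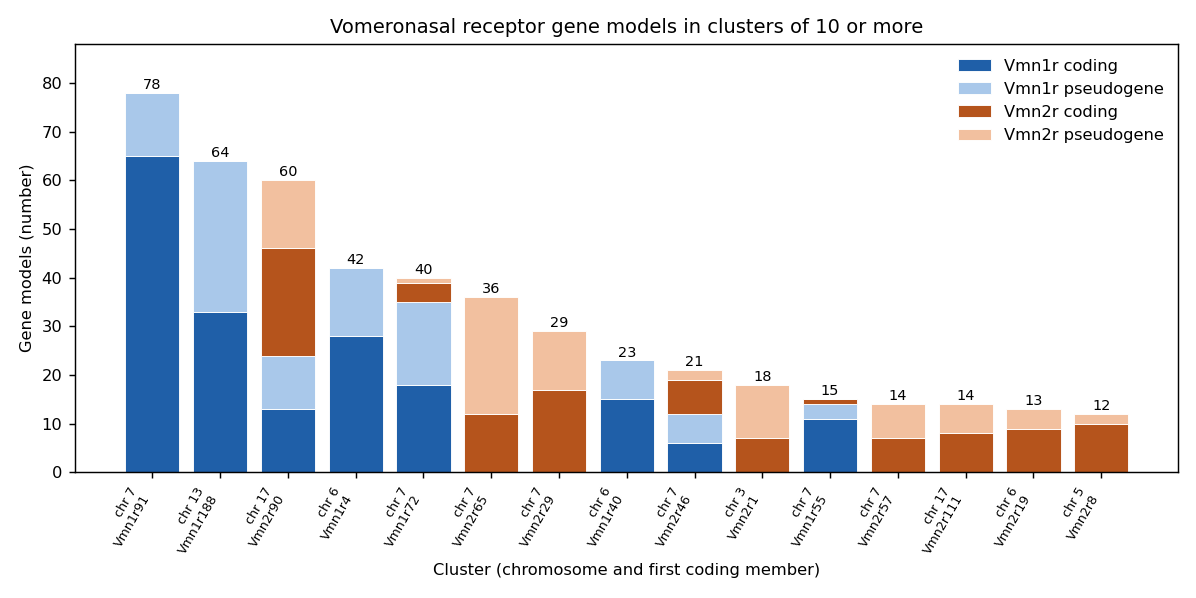
Number of gene models in each of the 15 clusters of 10 or more members, from the largest (78) to the smallest (12), stacked by family and class. Each cluster is labelled by its chromosome and its first coding member, and 4 of the bars hold both families.

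Other genes lay among the receptors. Of the 15 large clusters, 3 held no other protein-coding model within their bounds, namely those from Vmn1r188 (chromosome 13), Vmn2r1 (chromosome 3) and Vmn2r19 (chromosome 6). The chromosome 17 cluster that begins with Vmn2r90 held 14, among them all 7 Fpr models. Fpr1 and Fpr2 are known from neutrophils and macrophages, where they sense bacterial peptides, and several Fpr-rs genes are expressed in vomeronasal neurons. Each Fpr model had a single coding exon, with a family median of 343 codons. The cluster from Vmn1r72 to Vmn1r89 held 18 other coding models, of which 10 were named as zinc finger genes, and the cluster from Vmn2r65 held the odorant receptor genes Olfr290 and Olfr291. The cluster of 78 Vmn1r members held 36 other coding models, and 33 of these (91.7%, 78.2 to 97.1%) had a single coding exon of 301 to 321 codons, with a median of 307, the same as that of Vmn1r. Of the 33, 32 carry Gm symbols, which name predicted genes, and 1 is called V1rd19, so they fall outside the naming rule.

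Start windows from RefSeq could be matched by symbol and chromosome to 299 members, 184 of Vmn1r and 115 of Vmn2r, all on the model's strand. In 238 of them the RefSeq start was the first base of the Ensembl model. An ATG stood at the start, base 251 of the window, in 159 Vmn1r windows (86.4%, 80.7 to 90.6%) and 101 Vmn2r windows (87.8%, 80.6 to 92.6%), against 1632 of 32527 other windows (5.02%). In these members the window therefore holds the bases before the start codon and not those before a mapped transcript start.

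Windows were most alike within clusters. Identity was taken from the edit distance over 300 bases. Unrelated sequences also score some identity on this measure, and that level was not measured here. The closest other window was identical at a median of 83.0% of bases for Vmn1r members (quartiles 65.6 and 98.1%) and 92.0% for Vmn2r members (quartiles 85.0 and 96.0%). It lay in the same cluster for 160 of 184 Vmn1r members (87.0%, 81.3 to 91.1%) and 95 of 115 Vmn2r members (82.6%, 74.7 to 88.5%), at a joining distance of 500000 bases. At 100000 bases these shares were 57.6% and 55.7%. Pairs from the same cluster were identical at a median of 64.0% of bases in Vmn1r, against 47.3% for pairs from different clusters, and at 78.0% against 49.5% in Vmn2r. An identical partner was found for 38 members in 16 groups, 32 of Vmn1r and 6 of Vmn2r, and 30 of the 32 lay in the chromosome 7 cluster of 78. Of the other windows in the table, 1.40% were identical to another. The group of Vmn1r111 printed above was the largest, with 5 members. The least alike were Vmn1r171 and Vmn1r181, each at 50.0% to its closest window, and Vmn2r1, at 52.0%. These values are near the medians of pairs from different clusters. They are also near closest windows of the other family, such as Vmn2r10 for Vmn1r69, at 51.0%. Vmn2r116 was 98.0% identical to Vmn2r112, and Vmn1r49 was 88.7% identical to Vmn1r50. The printed pair Vmn2r6 and Vmn2r7 was 99.3% identical, in windows whose RefSeq starts lay 5480 and 125163 bases inside the Ensembl models.

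**Figure D5:**
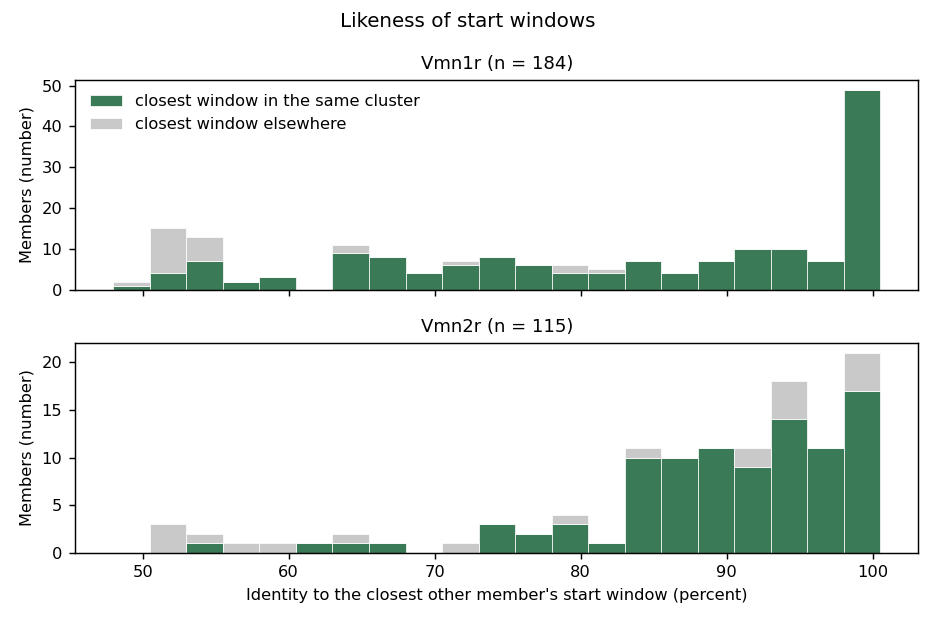
Number of members by identity, in percent of 300 bases, to the closest other member's start window, for Vmn1r (184 members, above) and Vmn2r (115 members, below); green marks members whose closest window lies in the same cluster and grey the others. The tallest column in both families is the one nearest 100%, and most members there have their closest window in the same cluster.

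Short motifs were counted in the same windows. The letters TATAAA occurred on the gene strand in 61 of 184 Vmn1r windows (33.2%, 26.8 to 40.2%) and 16 of 115 Vmn2r windows (13.9%, 8.75 to 21.4%), against 8.15% of 32527 other windows. Of other windows with an ATG at the start 17.7% held them, and of 948 Olfr windows 23.3%. On both strands the shares were 44.0% for Vmn1r (37.0 to 51.2%) and 22.6% for Vmn2r (15.9 to 31.1%), against 13.4% of other windows, 28.2% of other windows with an ATG at the start and 389 of 948 Olfr windows (37.9 to 44.2%), so the Vmn1r and Olfr intervals overlapped on both strands and did not on the gene strand. Of the 61 Vmn1r windows, 32 came from the 62 windows of the chromosome 7 cluster of 78 members, whose windows are often near copies, so the 61 are not independent. The median position of the first base was 56, counted from 1 at the 5′ end of the window, and in 0 of 184 windows did the letters lie 60 to 20 bases before the start. CCAAT occurred on the gene strand in 29.9% of Vmn1r windows and 20.9% of Vmn2r windows, against 21.1% of other windows. On both strands it occurred in 118 of 184 Vmn1r windows (64.1%) and 29.6% of Vmn2r windows (22.0 to 38.5%), against 37.2% of other windows. Of other windows with an ATG at the start 33.9% held CCAAT on both strands, and of Olfr windows 40.6%. On the gene strand those shares were 19.6% and 25.3%. The near copies of the chromosome 7 cluster are among these Vmn1r windows too. The palindrome of the olfactory factor EBF, TCCC and GGGA with any 2 bases between them, reads the same on both strands. On the gene strand any 2 of these motifs can share at most 1 base. The palindrome was found in 0 of 184 Vmn1r windows (0 to 2.05%) and 0 of 115 Vmn2r windows (0 to 3.23%). Of other windows 0.913% held it, a share within both intervals. These are matches of letters, not binding sites.

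Few members shared exon bases with another model on their strand, bases in which a read could not be assigned by position. There were 15 of 541 (2.77%, 1.69 to 4.52%), 10 of them coding, and 12 shared over 50% of their exon bases. Among coding models alone, 6 of 205 Vmn1r (2.93%) and 4 of 124 Vmn2r (3.23%) shared exon bases, against 13.3% of all 22159 protein-coding models. All 2556 exon bases of Vmn2r68 were shared with a RefSeq-source model called Vmn2r68-ps, and all 2571 of Vmn2r72 with Vmn2r72-ps, both of which carry a coding sequence despite the suffix. The pseudogene Vmn2r-ps159 shared 3026 bases with a model called Vmn2r123, and Vmn2r-ps11 shared 1911 with the processed transcript Gm26939. Vmn2r57 shared 1663 bases (64.2%) with the coding model Gm20449. In Vmn1r, Vmn1r62 shared 1754 bases with the pseudogene AC161762.1, Vmn1r90 shared 1192 with Gm18756, and the pseudogene called Vmn1r-ps5 on chromosome 5 shared all 937 with V1rg10. A second pseudogene of that symbol, on chromosome 6, shared 0. Vmn1r131, Vmn1r138 and Vmn1r166 shared all 921 exon bases with Gm4172, Gm4179 and Gm4220, and these 3 are members of the printed group with identical windows. Overlap between members was limited to 4 pairs, of which the lincRNA Vmn2r-ps111 and Vmn2r88 overlapped by 8527 bases, the whole span of Vmn2r88, without shared exon bases.

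The class given by Ensembl and by RefSeq differed for 5 of the 536 members found by symbol in a RefSeq gene table of GRCm38.p6. Vmn1r-ps103, Vmn1r221 and Vmn1r227 were pseudogenes in the deposited annotation and coding in RefSeq. Vmn2r-ps104, coding in the annotation, and Vmn2r-ps111, a lincRNA there, were pseudogenes in RefSeq. The RefSeq table listed 231 coding and 142 pseudogene loci for Vmn1r, and 124 coding and 148 pseudogene loci for Vmn2r. Of its coding loci, 25 had no member of that symbol, and 24 of these lay under an Ensembl model of another name. They included Vmn1r240 to Vmn1r260, each under a coding Gm model on chromosome 7, and Vmn2r126, under the coding model Gm9268. Vmn1r207 lay under the pseudogene Vmn1r207-ps and Vmn2r129 under the pseudogene Vmn2r-ps159.

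Of 18 genes of the vomeronasal pathway, 17 had an Ensembl model, all of them protein-coding, and Esp22 was not found under that symbol. All 2874 exon bases of Trpc2, the transduction channel, were shared with the model Xntrpc, and Esp1, the ligand of Vmn2r116, shared all 1049 with Gm6084. The other 15 shared 0 bases. They include the G protein subunits Gnai2, with 355 codons on chromosome 9, and Gnao1, with 354 codons on chromosome 8, 2 chromosomes without a receptor member. They also include the 8 H2-M molecules and B2m, which accompany V2R receptors in basal neurons. Gnai2 and B2m are also active in many other cell types, macrophages among them.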

How the data were processed

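The authors deposited a GTF gene annotation of 1544831 lines, whose other columns give start and end positions counted from 1; 0 lines carry a score and 0 columns hold values per sample. The sources used here do not say how it was assembled. TopHat2 2.1.1 and mm10 are the names found per the submitters' processing notes.

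Models were read with Python 3.11.15, pandas 2.3.3, numpy 2.4.6 and scipy 1.17.1. Coding exons, codons and untranslated parts came from the transcript with the longest coding sequence, spliced lengths from the longest transcript. Clusters joined members with at most 500000 bases between spans. Shared bases were bases of merged exons covered by exons of another model on the same strand. RefSeq windows of 300 bases were compared with edlib 1.3.9.post1 by global alignment. No proteins were compared.

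The code was tested on simulated data: coding exon number, coding bases, 5′ untranslated bases and shared bases were exact in 600 of 600 planted models, and 200 of 200 clusters were recovered.

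The members, lists and measures were chosen with earlier results of these data known. Named genes were the receptors with a described ligand or role, the extremes of each family and class, the first and last coding members of each cluster of 10 or more, the 5 members of each family with the most shared bases, and members whose RefSeq class differs; others were chosen after their values were seen. Alternatives covered the joining distance, the transcripts and models taken, the strand and the sources compared.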

Additional observations from a re-analysis of the deposited data

How the results depend on the processing

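Of 50 alternatives to 23 results, 39 stayed within the 95% interval of the reported value or, for counts, within 1.5 times of it, and 11 did not. At a joining distance of 100000 bases there were 78 clusters in place of 44, and 64.5% of members were in clusters of 10 or more in place of 88.5%. Counting Ensembl models only, 1.29% of members shared exon bases, against 2.77% with all sources. Between starts, the median distance of Vmn2r pseudogenes to the nearest coding member was 51486 bases, against 32390 between spans. TATAAA was found in 22.0% of Vmn1r windows and 5.88% of Vmn2r windows of members with a 5′ untranslated part, and in 44.0% and 22.6% on both strands, against 33.2% and 13.9% on the gene strand. In alternatives chosen after seeing the data, the closest window lay in the same cluster for 57.6% of Vmn1r and 55.7% of Vmn2r members at 100000 bases, and for 89.6% of Vmn2r members at 1000000 bases, against 87.0% and 82.6% at 500000 bases. The cause of these shifts was not tested. The comparisons of proteins planned as alternatives were not run, since no protein sequences were used here. No paired analysis was possible because the file holds no values per sample. The deposited annotation, RefSeq records and a list of gene symbols set these results, so sequencing depth does not limit them. They say nothing of expression in macrophages.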

Other observations

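On the assembled chromosomes 14 members, 6 of them coding, stood alone, over 500000 bases from any other. Among them were Vmn1r1 on chromosome 1, Vmn1r90 on chromosome 7, Vmn2r118 and Vmn2r120 on chromosome 17 and Vmn2r121 on the X chromosome. Both Y-linked members, Vmn2r-ps139 and Vmn2r-ps149, were pseudogenes that stood alone among the models of this annotation. RefSeq lists further Vmn2r pseudogene loci on the Y chromosome, among them Vmn2r-ps136 and Vmn2r-ps157, where the annotation has no exon. Members chosen for this paragraph were picked after their positions were seen.

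A table that pairs gene identifiers with symbols held 497 of the 541 members, of which 1, the Vmn1r-ps5 model on chromosome 5, had another symbol, V1rg10. It gave Vmn symbols to 3 models outside the rule, Gm11812 (Vmn1r-ps3), Gm20782 (Vmn2r125, 369 codons) and RP24-255F19.2 (Vmn2r-ps24). Of the RefSeq pseudogene loci without a member of that symbol, 31 of Vmn1r and 43 of Vmn2r had no exon of any model at their position.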
